A study of Monodelphis domestica with 5 samples.

Results

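The genomic distribution of trimethylation of lysine 27 of histone H3 (H3K27me3) was described on chromosomes 1 to 8 of the opossum, Monodelphis domestica, from the peaks of enrichment that the authors called in fibroblasts. Peaks were included if their score was at least 50, which is a MACS p of at most 1e-05, and peaks on chromosome X and on unplaced sequence were left out. This gave 4484 peaks of the 16592 in the H3K27me3 list and of the 308249 in the 4 lists of the series. On chromosomes 1 to 8 the list held 13322 peaks, so 33.7% of them passed the threshold, and the remaining 8838 had scores from 30 to below 50.

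The cells were untreated primary ear fibroblasts of 1 adult F1 male from a cross of an LL1 mother with an LL2 father, at passages 4 to 6 by the labels. Native chromatin was digested with micrococcal nuclease, and 1 library was made for each of the antibodies against H3K27me3, H3K9me3, H3K4me3 and H3K9Ac, with 1 library of input chromatin that served as the control in peak calling. There were no replicates, so no test between libraries was made and every value below describes 1 library. The lists hold no read counts, so the number of reads behind a single peak is unknown here. The study's supplement gives aligned reads per library, which were highest for H3K27me3 and lowest for H3K9me3. Comparisons between marks below were not adjusted for this difference in depth. The identity of the cells was not checked, as peaks carry no expression values. Intervals for shares are exact binomial and intervals for densities exact Poisson, at 95%, and cover counting error only, with peaks treated as independent.

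H3K27me3 is written by the enzyme EZH1 or EZH2 within Polycomb repressive complex 2 and is read by Polycomb complexes that keep chromatin compact and genes silent. In mammals it is best known at genes of development that a given cell type does not use, such as the HOX genes, where it may spread over many kilobases. H3K9me3 is the mark of constitutive heterochromatin and of silenced repeats, and was grouped with H3K27me3 as a mark of repression (MOR). H3K4me3 and H3K9Ac mark the promoters of active or poised genes and are the marks of activation (MOAs). As no genome sequence or gene annotation of MonDom5 was used here, regions are given by their MonDom5 coordinates, counted from 1, and no sequences are shown.

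The 4484 peaks covered 10.5 Mb, which is 0.308% of the 3423 Mb spanned by chromosomes 1 to 8. At the same threshold H3K9me3 covered 5.27% of it, H3K4me3 5.68% and H3K9Ac 3.80%. Most peaks were narrow and weak. The width ran from 770 to 46647 bases with a median of 2102 bases, and the middle 50% of peaks lay between 1751 and 2558 bases. The score had a median of 65.3, with quartiles at 56.0 and 82.9 and a highest value of 978. A score of at least 100 was reached by 624 peaks (13.9%) and a score of at least 200 by 57.

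The threshold cut through a dense part of the list. The lowest score inside it was 50, at chr5:174261453-174263527, and the highest outside it was 49.98, at chr5:89907262-89908713. There were 201 peaks with scores from 50 to below 51 and 208 with scores from 49 to below 50, and their median widths were 1664 and 1611 bases.

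Wider peaks had higher scores. Spearman's rho of width and score was 0.68 over the 4484 peaks and between 0.61 (chromosome 4) and 0.71 (chromosome 1) within single chromosomes. Peaks were ordered by width into 4 groups of about equal size. In the narrowest group (770 to 1751 bases) the median score was 55.5 and 0.356% of peaks reached a score of 100. In the widest group (from 2559 bases) the median score was 98.4 and 47.6% of peaks did so. The same measure was 0.71 for H3K9me3, 0.90 for H3K4me3 and 0.92 for H3K9Ac.

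**Figure D1:**
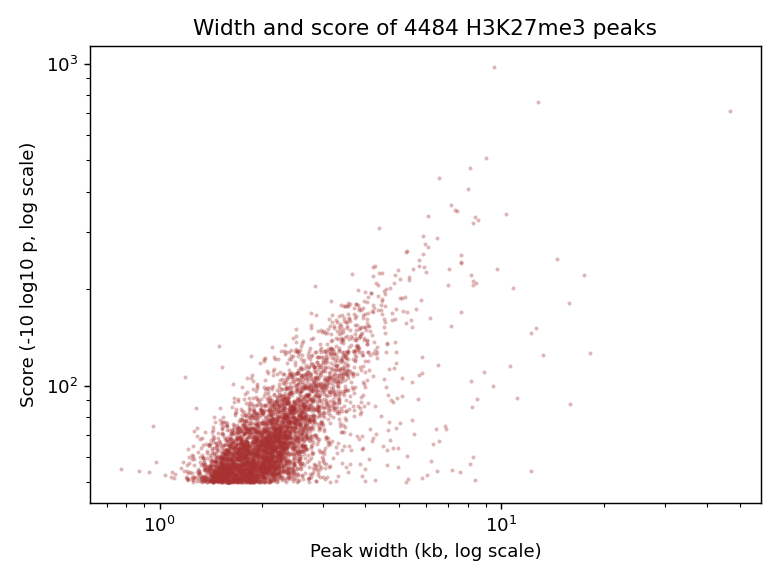
Width in kb (x axis, log scale) against score, the MACS p as -10 log10 (y axis, log scale), with 1 point for each of the 4484 H3K27me3 peaks. Most points rise together along 1 band, and a smaller set of peaks over about 4 kb wide lies below it with scores under 100.

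A set of wide peaks did not follow the trend. Among peaks of 4000 bases or more, 51 had a score under 100 (median width 5103 bases, median score 68.5) and 145 a higher score. H3K9me3 covered 65.5% of the bases of these 51 peaks, 47.2% of the bases of the 145 others and 30.9% of the bases of the 4288 narrower peaks. By number of peaks, H3K9me3 overlapped 76.5% of the 51 (interval 62.5% to 87.2%) and 65.5% of the 145 (57.2% to 73.2%), with intervals that overlapped. H3K4me3 covered 4.71% and 6.78% of the bases of the 51 and the 145, and overlapped 7 of the 51 (13.7%, interval 5.70% to 26.3%) and 50 of the 145 (34.5%, interval 26.8% to 42.8%). The split at 4000 bases was chosen after the plot of width and score had been seen.

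The 10 peaks with the highest scores were 6569 to 46647 bases wide, and 9 of them lay within 10000 bases of another H3K27me3 peak. The highest score, 978, belonged to chr3:203881527-203891045, which was 9519 bases wide and shared 61.0% of its bases with H3K9me3, 44.9% with H3K4me3 and 37.6% with H3K9Ac. The next was chr4:104948166-104960932 with a score of 759, with 59.3% of its bases in H3K9me3 and 0.791% in H3K4me3. The third, chr3:458627967-458674613, had a score of 714 and was the widest of all at 46647 bases. It was a single peak without H3K9me3, and H3K4me3 covered 4.87% of it. Over the 10 peaks, 7 shared bases with H3K9me3, 6 with H3K4me3 and 3 with H3K9Ac. Over all 4484 peaks the shares were 42.2%, 8.54% and 1.14%, but most of those peaks were much narrower.

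The other 4 of the 5 widest peaks were weaker. They were chr8:215089962-215108133 (18172 bases, score 126), chr3:203996149-204013558 (17410 bases, score 220), chr7:253588-269468 (15881 bases, score 87.8) and chr4:50393752-50409570 (15819 bases, score 181). H3K9me3 covered the chromosome 4 peak entirely and 87.3% of the chromosome 7 peak, but none of the chromosome 8 peak. In all, 15 peaks were 10000 bases or wider, and 12 of them shared bases with H3K9me3. Overlap was more frequent for wider peaks in general. H3K9me3 overlapped 35.6% of peaks in the narrowest of the 4 width groups and 53.5% in the widest. The part of width in the counts for the widest and highest-scoring peaks was not tested.

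H3K27me3 peaks were found on every chromosome at 1.31 per Mb, and the density differed between chromosomes by 1.58 times at most. Chromosome 1 had the highest density, with 1190 peaks at 1.59 per Mb (interval 1.502 to 1.684), and chromosome 7 the lowest, with 262 peaks at 1.004 per Mb (interval 0.886 to 1.13). Chromosome 2 had 1.39 per Mb (1.29 to 1.49), chromosome 5 1.31 (1.18 to 1.44), chromosome 8 1.24 (1.12 to 1.37), chromosome 4 1.23 (1.13 to 1.34), chromosome 3 1.18 (1.09 to 1.28) and chromosome 6 1.14 (1.02 to 1.27). The intervals of these 6 overlapped those of their neighbours in this order, whereas the interval of chromosome 1 lay above all others. The median width (2062 to 2146 bases) and the median score (64.1 to 66.4) were nearly the same on all 8 chromosomes. Chromosomes 1 and 2 also had the most H3K4me3 peaks per Mb (23.4 and 23.8), and chromosome 7 had the fewest H3K9Ac peaks per Mb (11.5). Chromosome 5 differed, with the fewest H3K4me3 peaks per Mb (17.7) and the third highest density of H3K27me3.

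Along the chromosomes the peaks with a score of at least 50 were sparse, with high coverage in a few bins. The paper describes H3K27me3 as diffuse over the genome with most peaks between genes, and left it out of its further work. Signal that was not called as a peak is not seen here, and with every deposited peak 80.8% of bins held the mark. Of 3419 complete bins of 1 Mb, 1782 (52.1%, interval 50.4% to 53.8%) held bases covered by H3K27me3, and the shares for H3K9me3, H3K4me3 and H3K9Ac were 99.5%, 90.5% and 86.7%. The median bin had 1.45 kb of H3K27me3 and the 90th percentile was 8.27 kb, while the highest bin had 145.5 kb. The top 5% of bins (170 bins) held 35.1% of all H3K27me3 bases, whereas the top bins of H3K9me3, H3K4me3 and H3K9Ac held 20.3%, 15.7% and 17.0% of their own bases. A total of 322 bins (9.42%) held 50% of the H3K27me3 bases. These shares are not matched for the number of peaks, and a sparser mark is spread over fewer bins.

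**Figure D2:**
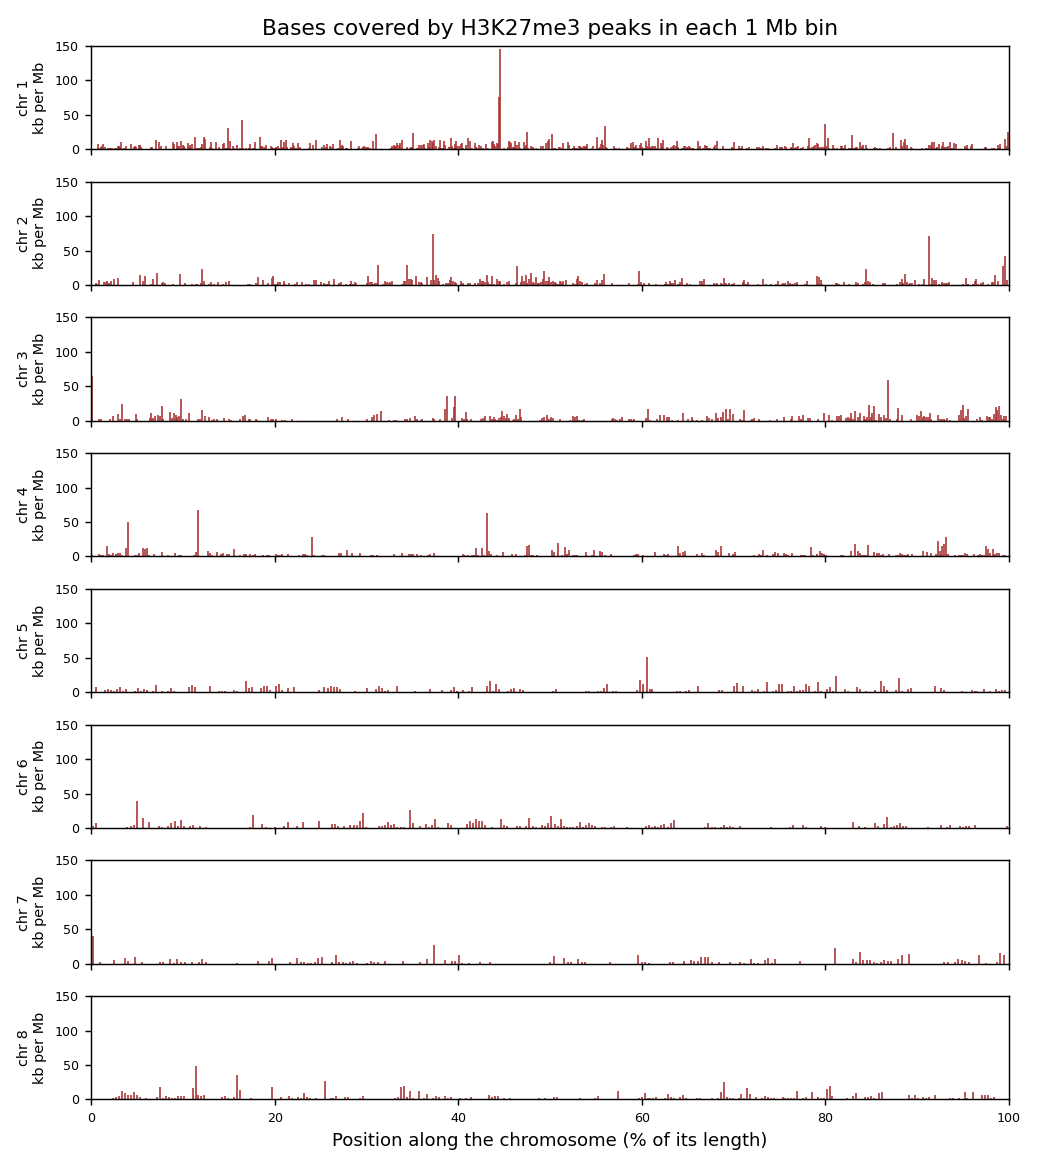
Bases covered by H3K27me3 peaks in each 1 Mb bin (y axis, kb) along chromosomes 1 to 8 (x axis, percent of chromosome length), with 1 vertical line for each bin. Most bins are near 0, and the tallest line is the bin of 145.5 kb on chromosome 1.

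Bins with H3K27me3 lay side by side. Of bins with at least 1 neighbour holding the mark, 58.9% held it themselves, against 32.9% of bins whose neighbours did not. When each chromosome was divided into 10 parts of equal length, the share of peaks ran from 7.63% in part 3 to 13.6% in part 5. The outermost 10 Mb at both ends, 4.67% of the span, contained 5.24% of H3K27me3 peaks, with an interval from 4.61% to 5.93%, and between 3.88% and 4.29% of the peaks of the other marks.

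Distances between neighbouring peaks were spread widely. The median distance between neighbours was 220.1 kb, with quartiles at 26.0 and 867 kb. At the extremes, 17.2% of the 4476 distances were at most 10 kb and 4.16% at most 1 kb, and 22.2% were over 1 Mb. For comparison, the 4484 H3K9me3 peaks with the highest scores on the same chromosomes were taken, so that both sets had the same number of peaks. Their median distance was nearly equal, at 223.5 kb, and they occupied a similar number of 1 Mb bins by peak centre (1813 against 1780). The difference lay at short range, where 9.16% of H3K9me3 distances were at most 10 kb. These H3K9me3 peaks were wider, with a median of 3868 bases, and were selected by score, so a run of enrichment may be called as 1 wide peak in one list and as several in the other.

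**Figure D3:**
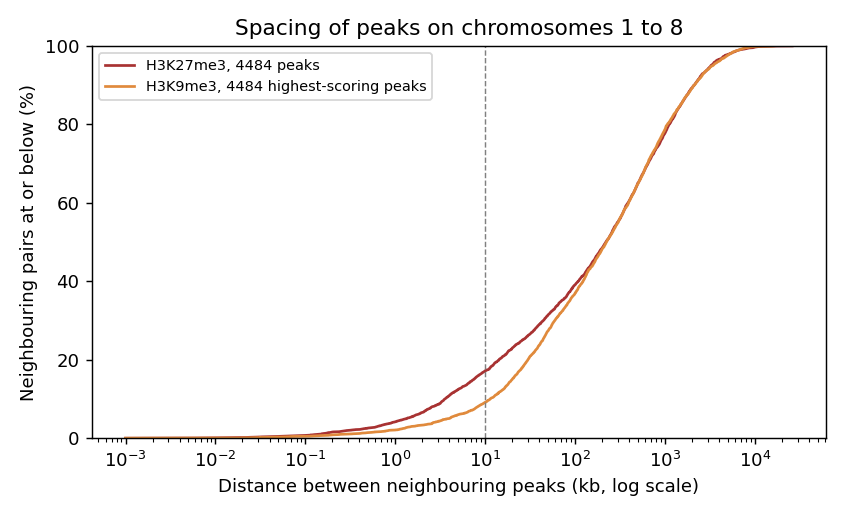
Cumulative percent of neighbouring peak pairs (y axis) at or below a distance in kb (x axis, log scale) for the 4484 H3K27me3 peaks and the 4484 highest-scoring H3K9me3 peaks. The dashed line marks 10 kb, where the H3K27me3 curve stands at 17.2% and the H3K9me3 curve at 9.16%, and the curves meet near their medians.

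Peaks at most 10000 bases apart were joined into clusters. In total, 1263 peaks (28.2%, interval 26.9% to 29.5%) lay in 495 clusters of 2 or more, and 3221 peaks were single. In the equal number of H3K9me3 peaks the share in clusters was 16.7% (15.6% to 17.9%). The larger full lists at a score of at least 50 gave higher shares. Clustering reached 63.95% for H3K9me3, 66.29% for H3K4me3 and 59.15% for H3K9Ac, with 2484, 2256 and 1047 clusters of 5 or more. As these lists are not matched for number, the higher share of H3K27me3 holds only against the equal number of H3K9me3 peaks. Most H3K27me3 clusters were pairs (375), and 27 held 5 peaks or more, with 41 peaks in the largest. In the H3K9me3 set 7 clusters held 5 peaks or more and the largest had 9. The median cluster spanned 9.58 kb and 56.7% of it was covered.

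Peaks in large clusters had higher scores and overlapped H3K4me3 more often. The median score was 63.8 for single peaks, 69.1 in clusters of 2 to 4 and 88.4 in clusters of 5 or more. H3K4me3 overlapped 5.59% of single peaks (interval 4.82% to 6.44%), 13.7% of peaks in clusters of 2 to 4 (11.7% to 15.9%) and 27.8% of those in clusters of 5 or more (21.9% to 34.4%). Without the largest cluster the last share was 21.1% (15.2% to 27.9%). H3K9me3 showed no such order, at 43.1%, 37.2% and 52.8%, and the last value was 43.9% without the largest cluster. H3K9Ac overlapped no more than 1.81% of peaks in any of these groups. The median width was 2062 bases for single peaks, 2179 in clusters of 2 to 4 and 2541 in clusters of 5 or more. The part of width in these shares was not tested. Of the 27 clusters of 5 or more, 21 had no H3K9Ac peak anywhere in their span, 5 had no H3K4me3 peak and 4 no H3K9me3 peak. Their median span was 29.07 kb, and over all chromosomes H3K9Ac had 14.95 peaks per Mb, H3K4me3 21.94 and H3K9me3 23.92. Many spans of that length elsewhere may thus also hold no peak of a given mark. The share of such spans was not computed.

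The largest cluster lay at chr1:333008605-333220613, 117 kb below the position given for the 3' end of the protocadherin gene PCDHGC5. Clustered protocadherins are cell adhesion proteins best known from neurons, where each cell expresses a few of them. The cluster held 41 peaks over 212.0 kb, of which 136.4 kb (64.3%) was covered. Widths ran from 1202 to 8999 bases and scores from 50.7 to 508, with a median of 92.7, and 18 peaks reached a score of 100. Starts of neighbouring peaks were a median of 4294 bases apart. The strongest peak, chr1:333204579-333213577, lay near the upper end, with other strong peaks at chr1:333099143-333106256 (score 364), chr1:333123384-333131896 (score 326) and chr1:333038095-333043387 (score 262).

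The gene positions for this region are those of candidate genes in the study's supplement. They are windows at the 3' end of each gene, so the rest of a gene may lie nearer to the cluster or inside it. The window of XM_001377829.1, a transcript in that supplement, lay 7.05 kb above the cluster in coordinates. That of XM_001377862.1 lay 24.4 kb above the cluster and that of PCDHGC5, a gamma protocadherin, 117 kb above it. In the RefSeq table of mMonDom1, a different assembly, XM_001377862.1 belongs to LOC100027670, which lies between PCDHB1 and PCDH1 with 18 genes on the side of PCDHB1 and 9 on the side of PCDH1. An H3K27me3 peak outside the cluster, chr1:333245297-333247414 (score 53.6), overlapped the position given for XM_001377862.1. Which genes lie under the 41 peaks was not analysed here, as these would need MonDom5 gene models.

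Both MORs and H3K4me3 were present across this region, and H3K9Ac began at its end. H3K9me3 covered 75.6% of the 212.0 kb, and 21 of the 41 peaks lay wholly inside H3K9me3. A run of 4 peaks from 333095877 to 333119339 had no H3K9me3, and the peak with a score of 364 was among them. H3K4me3 had 22 peaks over the region and overlapped 23 of the 41 H3K27me3 peaks, covering at most 60.01% of any of them. The single H3K9Ac peak of the region touched its upper edge. In the next 50 kb upwards, H3K27me3 fell to 4.24% of bases, while H3K9me3 covered 96.5%, H3K4me3 85.6% and H3K9Ac 32.4% in 9 peaks. An H3K9me3 peak of 81084 bases (chr1:333174971-333256054, with a score of 3100, the ceiling of the score) ran across this edge. In the 50 kb below the cluster, H3K27me3 covered 3.17%, H3K9me3 33.4%, H3K4me3 7.03% and H3K9Ac none.

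A smaller cluster of 12 peaks lay at chr1:332647262-332719076, in the preceding bin. It covered 48.2% of 71.8 kb, with a median score of 103.8, and overlapped H3K9me3 at 8 peaks and H3K4me3 at 2. No H3K9Ac peak lay in it.

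The second and sixth clusters by number of peaks, with ties ordered by covered bases, were neighbours on chromosome 4, at chr4:187474335-187540256 (12 peaks, scores from 66.1 to 218) and chr4:187409075-187444555 (9 peaks, scores from 58.6 to 255). The sixth was included after its position had been seen. They ended 199 kb and 294 kb below the position given for the 3' end of MTX2, which encodes a mitochondrial outer membrane protein. In mMonDom1, MTX2 is flanked on one side by HNRNPA3 and on the other by 9 HOXD genes in the order HOXD1, HOXD3, HOXD4, HOXD8, HOXD9, HOXD10, HOXD11, HOXD12 and HOXD13, followed by EVX2. HOXD genes encode homeodomain transcription factors that pattern the body axis and limbs and are known targets of Polycomb in other mammals. The MonDom5 positions of the HOXD genes were not used here, and the nearest H3K9me3 peak overlapping both MOAs was 101.8 kb from the position given for MTX2.

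The 21 peaks of the chromosome 4 clusters covered 45.5% of 131.2 kb, with a median width of 2536 bases. H3K4me3 had 18 peaks in the same region, with scores up to 2108, and overlapped 9 of the 21. H3K9me3 had 19 peaks and overlapped 15, and H3K9Ac had 1 peak and overlapped none. In the 29.8 kb between the clusters, H3K4me3 covered 39.9% in 6 peaks and H3K9me3 48.0%, while 4 H3K27me3 peaks were present below the threshold. At a score of at least 50 both edges were sharp. The 50 kb below the region held no such peak of any of the 4 marks, and the 50 kb above it held 1 H3K4me3 peak alone. Peaks below the threshold were not counted in these flanks.

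**Figure D4:**
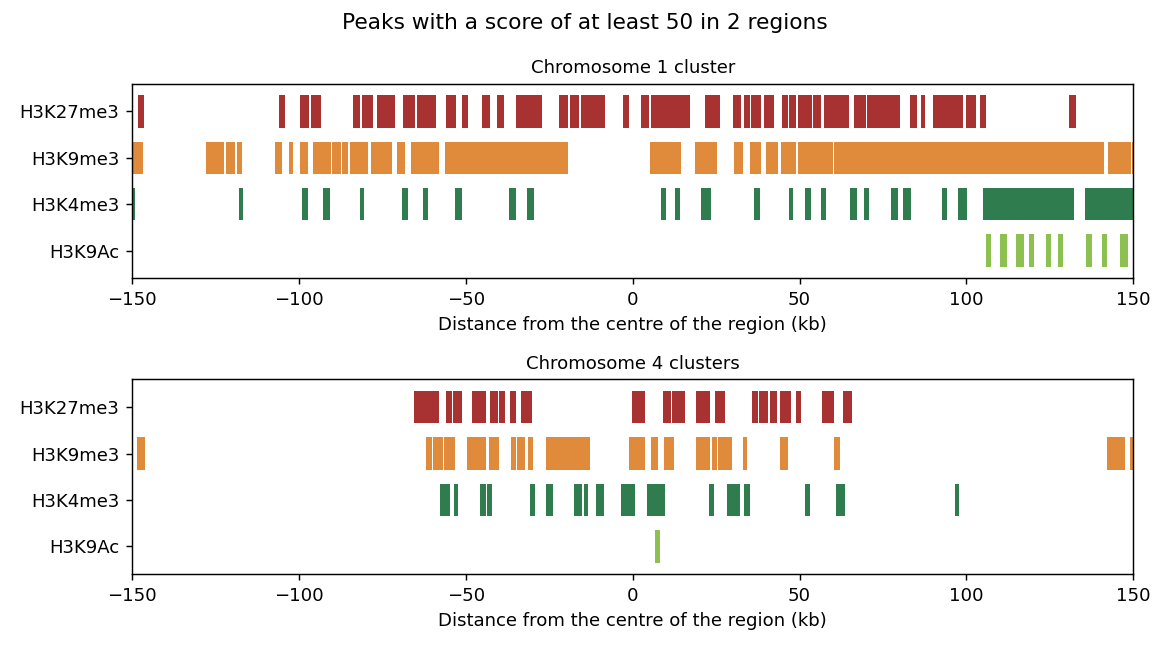
Peaks of the 4 marks with scores of at least 50 in the chromosome 1 cluster of 41 peaks and the chromosome 4 clusters of 12 and 9 peaks, as bars drawn to scale against the distance in kb from the centre of the region. Each region holds 1 H3K9Ac peak. On chromosome 1 H3K9Ac starts where the H3K27me3 cluster ends. The 50 kb below that cluster and the 50 kb on either side of the chromosome 4 region, where H3K27me3 is sparse or absent, hold no H3K9Ac peak either.

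The next clusters by number of peaks lay farther from any candidate position. They were chr6:14496483-14547826 (9 peaks, highest score 241) and chr1:122630078-122677257 (9 peaks, highest score 146). H3K4me3 overlapped 3 and 2 of their peaks, H3K9me3 overlapped 5 and 2, and H3K9Ac overlapped none. The nearest position was that of GAS1, a growth arrest gene, at 977 kb for the chromosome 6 cluster, and a gene without a symbol at 5022 kb for the chromosome 1 cluster.

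The 10 bins with the most H3K27me3 held 722.9 kb, or 6.88% of its bases. All 10 were above the median bin for H3K9me3, 9 were above it for H3K4me3 and 8 for H3K9Ac. The top bin was that of the largest cluster, chr1:333000001-334000000, with 145.5 kb in 45 peaks, followed by the bin below it, chr1:332000001-333000000, with 76.5 kb in 30 peaks. The next were chr2:201000001-202000000 (74.1 kb, 30 peaks), chr2:494000001-495000000 (71.4 kb, 23 peaks), chr4:50000001-51000000 (67.7 kb, 11 peaks) and chr3:1-1000000 (64.7 kb, 10 peaks). The bin of MTX2 and the chromosome 4 clusters, chr4:187000001-188000000, ranked seventh with 63.5 kb in 23 peaks. The last of the 10 were chr3:458000001-459000000 (59.3 kb, 2 peaks), chr5:184000001-185000000 (50.5 kb, 18 peaks) and chr4:17000001-18000000 (49.9 kb, 20 peaks).

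These bins were of different kinds. At chr2:494000001-495000000, H3K4me3 covered 244.6 kb, more than in 99.6% of bins, and H3K9Ac 110.3 kb. At chr4:17000001-18000000, H3K4me3 covered 224 kb, yet none of its 20 H3K27me3 peaks overlapped H3K4me3. At chr4:50000001-51000000 the MOAs were scarce, with 12.6 kb of H3K4me3 and 1.22 kb of H3K9Ac, whereas H3K9me3 covered 282 kb, more than in 99.6% of bins, and overlapped all 11 H3K27me3 peaks. The highest bin of chromosome 8, chr8:35000001-36000000, resembled it, with 48.2 kb of H3K27me3, 198 kb of H3K9me3 and 18.1 kb of H3K4me3. The highest bins of chromosomes 3 and 7 were the first of the chromosome, with 64.7 kb and 39.6 kb. In chromosome 6 the highest bin was chr6:14000001-15000000, with 38.7 kb in 14 peaks.

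Over all bins, rho of H3K27me3 was higher with the MOAs than with H3K9me3. Spearman's rho of covered bases over 3419 bins was 0.42 with H3K4me3 and 0.38 with H3K9Ac, and lay between 0.36 and 0.53 and between 0.34 and 0.50 within single chromosomes. With H3K9me3 it was 0.04, positive on 6 chromosomes and negative on chromosomes 5 (-0.18) and 7 (-0.12), and it changed sign to -0.0528 for bins of 2 Mb. The gap was small over bins with an H3K27me3 peak alone, where rho was 0.24 with H3K4me3, 0.19 with H3K9Ac and 0.16 with H3K9me3. H3K9me3 and H3K4me3 themselves were inversely related, at -0.32. Bins share the input library, the reads that can be placed in them and their gene density, so these values are given as descriptions without p. All 4 lists were called against the same input.

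The relation to H3K9me3 changed with the number of H3K27me3 peaks. The 1643 bins without a peak centre had a median of 33.5 kb of H3K9me3, 24.6 kb of H3K4me3 and 15.2 kb of H3K9Ac. Their upper quartile of H3K9me3 was 77.85 kb, against 50.25 kb in bins with 1 peak and 69.26 kb in bins with 6 to 10. In the 772 bins with 1 peak the medians were 33.6 kb, 52.4 kb and 34.5 kb, and in the 224 bins with 3 peaks they were 35.9 kb, 76.2 kb and 50.8 kb. H3K4me3 then levelled off, at 82.9 kb for 4 to 5 peaks, 81.8 kb for 6 to 10 and 82.5 kb for 11 or more. H3K9me3 instead was higher in these richest bins, with medians of 39.4 kb, 48.1 kb and 77.4 kb. The last group held 25 bins and 416 peaks, and its quartiles for H3K9me3 were 58.0 and 147.6 kb.

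**Figure D5:**
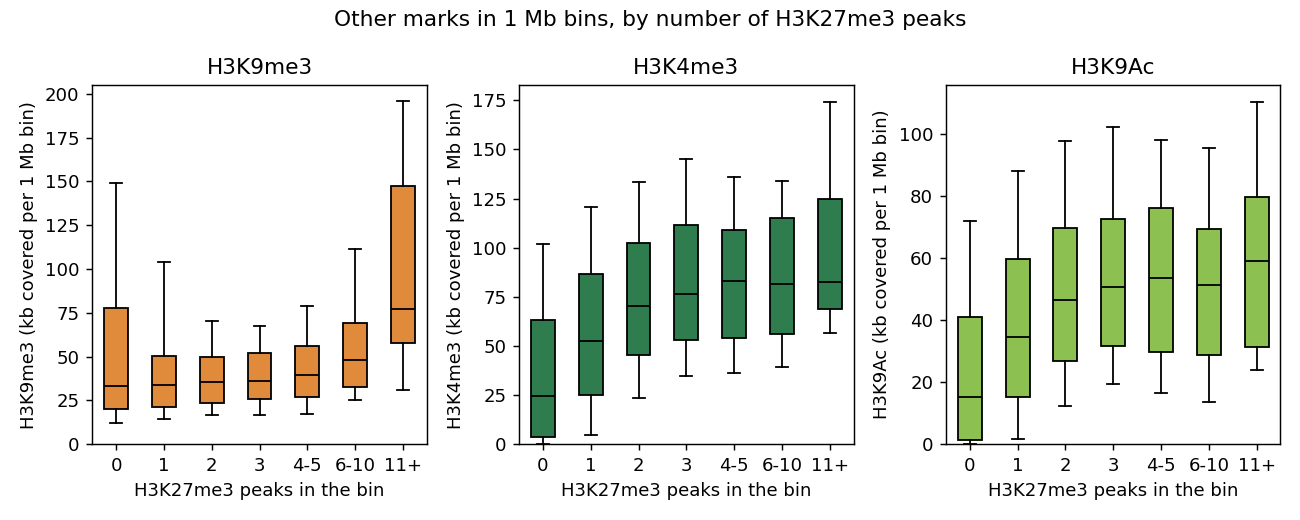
Bases covered by H3K9me3, H3K4me3 and H3K9Ac in 1 Mb bins (y axes, kb) by the number of H3K27me3 peaks in the bin (x axes). Boxes give the quartiles with the median as a line, and whiskers the 10th and 90th percentiles. The medians of the MOAs rise from 0 to 3 peaks and then level off. The median of H3K9me3 is nearly level up to 3 peaks and is highest in the 25 bins with 11 or more. The upper quartile of H3K9me3 is higher in bins without a peak than in bins with 1 to 3.

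Bins rich in both H3K4me3 and H3K9me3 held the most H3K27me3 peaks. When bins were split at the medians of H3K4me3 (48.9 kb) and H3K9me3 (34.9 kb), the 707 bins high in both had 2.91 H3K27me3 peaks per bin (interval 2.78 to 3.03) and 45.9% of all peaks. The 1002 bins high in H3K4me3 alone had 1.35 per bin (1.28 to 1.42). The 1002 bins high in H3K9me3 alone had 0.618 (0.570 to 0.668), and the 708 bins low in both had 0.643 (0.585 to 0.705). Bins high in both had the most peaks per bin on 8 of 8 chromosomes. Without the 10 top bins their value was 2.66 per bin.

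On the scale of single peaks H3K9me3 came first. H3K9me3 covered 33.3% of H3K27me3 bases, 6.32 times its share of the span, and overlapped 1892 peaks (42.2%). H3K4me3 covered 2.73% of H3K27me3 bases, 0.481 times its share of the span, and overlapped 383 peaks (8.54%, interval 7.74% to 9.40%). H3K9Ac covered 0.263%, 0.0693 times its share of the span, and overlapped 51 peaks (1.14%, interval 0.848% to 1.49%). No other mark overlapped 2331 peaks (52.0%), H3K9me3 alone overlapped 1768 (39.4%), H3K4me3 alone 228 (5.08%) and H3K9me3 with H3K4me3 106 (2.36%). The last group had the highest median score of these 4, at 93.3, and 66.0% of its peaks lay in clusters, against 27.3% of the peaks without another mark.

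Stronger peaks overlapped the other marks more often. From scores of 50 to 60 up to scores of 200 or more, the share overlapping H3K9me3 went from 38.1% (interval 35.8% to 40.5%, 1658 peaks) to 68.4% (54.8% to 80.1%, 57 peaks), and the share overlapping H3K4me3 from 5.79% (4.72% to 7.03%) to 43.9% (30.7% to 57.6%). The median width rose from 1764 to 6109 bases over the same classes, and the part of width in these shares was not tested. Among the peaks of 4000 bases or more given above, H3K4me3 overlapped 13.7% at scores under 100 and 34.5% at higher scores. For H3K9me3 these shares were 76.5% and 65.5%. The same groups also differed in clustering, with 45.1% and 59.3% of peaks in clusters, and the part of clustering was not tested. By chromosome the share overlapping H3K9me3 ran from 38.5% (chromosome 7) to 46.3% (chromosome 3), with intervals that overlapped. The share overlapping H3K4me3 ran from 5.15% (chromosome 8) to 10.8% (chromosome 1).

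H3K27me3 peaks lay beside H3K4me3 peaks rather than in them. The centre of 71 peaks (1.58%, interval 1.24% to 1.99%) was inside an H3K4me3 peak, 0.279 times the share of the span there. A further 2276 centres (50.8%, interval 49.3% to 52.2%) lay outside but within 10 kb, where 25.7% of the span lies. The ratio to the span was 1.80 up to 2 kb from an H3K4me3 peak, 2.19 from 2 to 5 kb, 1.92 from 5 to 10 kb and 0.167 beyond 100 kb. The span also holds sequence with few genes, whose part in these ratios was not tested. In all, 4.55% of H3K27me3 centres lay beyond 100 kb, compared with 49.5% of H3K9me3 centres. Inside H3K4me3 peaks the shares were similar, at 1.58% of H3K27me3 centres and 1.88% of H3K9me3 centres. From 2 to 5 kb away they were 18.2% and 6.01%. For H3K9Ac the depletion reached further, with ratios of 0.0352 inside, 0.699 up to 2 kb, 1.56 from 2 to 5 kb and 1.72 from 5 to 10 kb. For H3K9me3 the ratio was 6.36 inside, 1.61 up to 2 kb, 0.911 from 2 to 5 kb and 0.378 beyond 100 kb.

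The 3 longest stretches without H3K27me3 held many H3K9me3 peaks. The longest was 26.0 Mb, chr3:115365070-141357944, with 64.2 H3K9me3 peaks per Mb and 5.001 H3K4me3 peaks per Mb, against 23.9 and 21.9 on all 8 chromosomes. The second, chr7:113305640-130851293 (17.5 Mb), had 80.1 and 1.43 per Mb, and the third, chr3:283248906-299040192 (15.8 Mb), had 66.8 and 4.05. In the fourth, chr6:36343715-50546605 (14.2 Mb), the densities were 31.0 and 3.80. The fifth differed, as chr4:162766150-176086709 (13.3 Mb) had 19.1 peaks per Mb of either mark. Between 12 and 22 H3K27me3 peaks below the threshold lay in each of these stretches.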

How the data were processed

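Per the Methods, quality-filtered reads were aligned to MonDom5 by the authors, who used Bowtie under Galaxy and kept the best alignment, and MACS was then run on each antibody's library with the input as control. The submitters' processing notes give Bowtie 1.1.2, MACS 1.0.1 and CASAVA 1.7, and whether the Bowtie and MACS numbers are those of the programs or of their Galaxy wrappers is not given in the sources used here. The deposited score of a peak is minus 10 times the log10 of its p-value, as written by the authors' peak caller.

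Peaks were handled in Python 3.11.15 with pandas 2.3.3, numpy 2.4.6 and scipy 1.17.1 and plotted with matplotlib 3.10.9. Starts were converted to counting from 1, and 2 starts below 0 were set to 0. The largest peak end in any list stood for the length of a chromosome. Bins were 1 Mb, and the incomplete last bin of each chromosome, with 6 H3K27me3 peaks in all, was left out. A shared length of 1 base or more counted as overlap, and clusters joined peaks at most 10000 bases apart. The code was checked on simulated data, where 200 of 200 planted overlaps and 300 of 300 planted clusters were found.

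Named regions are the 10 richest bins, the highest bin per chromosome, the 10 highest scores, the 5 widest peaks, the 5 largest clusters and the 5 longest stretches without a peak. The members and these choices were made with earlier results of these data known. Lists of HOX genes, other developmental regulators and genes silent in fibroblasts need MonDom5 positions and were not analysed here. IGF2R, listed beside the candidate genes in the study's supplement, was left out. Gene positions were those of the 3' ends of the 176 candidate genes on chromosomes 1 to 8 there, read from page images. Of these, 138 had an H3K9me3 peak overlapping both MOAs within 100000 bases, and MTX2 was not among them. The HOXD genes, the sixth cluster, the split of wide peaks at 4000 bases, the split of bins at medians and the distance classes were chosen after values had been seen. Gene order was taken from the RefSeq table of mMonDom1, without its coordinates.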

Additional observations from a re-analysis of the deposited data

Results flagged for a closer look

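The H3K27me3 list holds 8838 peaks on chromosomes 1 to 8 with scores from 30 to below 50, which were outside the main set of peaks and were used in the report only at the threshold and as counts within single regions. Of these, 1472 (16.7%, interval 15.9% to 17.5%) lay within 10000 bases of a peak with a score of at least 50, and 76.3% had their centre in a 1 Mb bin that also held the centre of such a peak. They were narrower, with a median width of 1438 bases. H3K9me3 overlapped 33.7% of them, H3K4me3 3.33% and H3K9Ac 0.283%, each below the share of the stronger peaks. They were singled out because they are a signal outside the main set for which no control level is given, and no explanation was tested.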

How the results depend on the processing

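The 14 results were recomputed under 58 alternatives in all. Values changed little in 24 cases, moved in 33 and reversed in 1, and 5 alternatives were chosen after seeing the data. With no replicates, a share of peaks or of bins was taken as moved when it left its 95% interval. Other values were taken as moved when they changed by more than 1.5 times. The share of bases in the top 5% of bins was among these other values. The score threshold mattered most. With every deposited peak (score of at least 30) there were 13322 peaks covering 23.84 Mb, the median distance was 64.0 kb, 39.7% of peaks lay in clusters and 80.8% of bins held the mark. The overlap was then 36.6% with H3K9me3, 5.08% with H3K4me3 and 0.570% with H3K9Ac, and rho per bin with H3K9me3 was 0.0281. At a score of at least 100 there were 624 peaks covering 2.38 Mb, with a median distance of 2041 kb, 19.4% of peaks in clusters, 12.5% of bins with the mark and 68.1% of bases in the top 5% of bins. The overlap was then 50.2%, 19.1% and 2.56%, in the same order, and rho was 0.21 with H3K4me3 and 0.19 with H3K9Ac. Cluster gaps of 5000 and 50000 bases gave 21.0% and 47.9% of peaks in clusters. Bins of 500 kb and 2 Mb held the mark in 33.6% and 72.1% of cases. The weak rho with H3K9me3 was 0.0896 for bins of 500 kb, reversed to -0.0528 for bins of 2 Mb, and was 0.0070 for numbers of peaks. Over bins with an H3K27me3 peak alone, rho was 0.16 with H3K9me3, 0.24 with H3K4me3 and 0.19 with H3K9Ac. When 50% of the peak had to be covered, overlap was 33.5% with H3K9me3, 1.47% with H3K4me3 and 0.0892% with H3K9Ac. With every deposited H3K9me3 peak it was 48.6%. Merging peaks within 1000 bases, leaving out the largest cluster and leaving out the 10 top bins moved no result they were run for. Causes of these changes were not tested.

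No paired analysis was possible because each antibody had a single library. A single animal, antibody lot and input limit every value, and peaks in repeats depend on where the best alignment of a read was placed.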

Other observations

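The 176 candidate genes of the study on chromosomes 1 to 8 were chosen there for H3K9me3, both MOAs and a CpG island near the promoter, not for H3K27me3. The position given for the 3' end of the gene fell in a 1 Mb bin with an H3K27me3 peak for 134 of them (76.1%, interval 69.1% to 82.2%), against 52.1% of all bins. All bins are not a matched background, as the candidates carry both H3K4me3 and H3K9me3. An H3K27me3 peak was present in 60.5% of bins high in H3K4me3 alone and in 82.6% of bins high in both marks. The share for the candidates lay between these 2 values. The bins of the candidates were not sorted into these groups, and the part of gene-rich bins was not tested. The median distance to the nearest H3K27me3 peak was 166 kb. Within 100 kb of a peak there were 62 genes (35.2%), against 17.0% of the span for windows of the same length. The span is likewise not matched for H3K4me3 or H3K9me3. At closer range the shares were near those of the span, with 3 genes (1.7%) within 10 kb against 2.62%, and 1 position (0.568%), that of XM_001377862.1, overlapping a peak against 0.435%.

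Apart from MTX2 and those near the chromosome 1 cluster, the named candidates in the bins with most H3K27me3 peaks were COPB1 and NR2F1. COPB1 on chromosome 5, a coat protein of transport vesicles, had 11 peaks in its bin and the nearest at 11.98 kb. NR2F1 on chromosome 3, an orphan nuclear receptor of development, had 9 peaks in its bin and the nearest at 23.1 kb. The bin of C2orf69 on chromosome 4 held 8 peaks, with the nearest at 109 kb. PABPC1 on chromosome 3, a poly(A) binding protein, also had 8 peaks in its bin, with the nearest at 41.6 kb. These genes were picked after their values had been seen.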
